A study of Drosophila melanogaster with 3 samples.

Results

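The genes described are the 93 cytoplasmic ribosomal protein genes of Drosophila melanogaster, taken as every protein-coding gene whose symbol begins with RpL or RpS, plus sta, among 13945 protein-coding genes on 6 chromosome arms. Of these, 54 belong to the large and 39 to the small subunit, 66 have a single copy and 27 fall into 13 paralogue families. For each gene it was asked whether the CG17359 protein was bound at its start site in embryos, how far from the start site the summit of the peak lay, and how strong the peak was within its list.

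The samples were 3 biological replicates of whole embryos aged 0 to 14 h, all from a transgenic line that stably expresses CG17359 with GFP at its C terminus. An antibody to GFP was used to pull down bound chromatin, whose DNA was sequenced (ChIP-seq), with 1 control shared by all replicates, and what was sequenced in that control is not given in the labels. No untagged line and no second condition is among the samples analysed here, so comparisons run between genes within a replicate. The authors called peaks in each replicate and on the pooled replicates, and the whole lists stop at 30000 peaks each, while the thresholded list of reproducible peaks (by irreproducible discovery rate, IDR) holds 7287. Whole embryos mix many cell types, so a weak peak in all cells and a strong peak in few cells cannot be told apart. The lists hold no read counts, and the depth behind each peak is unknown.

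Ribosomal protein genes encode the protein part of both ribosomal subunits, are transcribed strongly in nearly all cells, and are needed in balanced amounts: in flies, loss of 1 copy of many of them gives the Minute phenotype of slow development and thin bristles. Their start sites are known for the TCT initiator, a pyrimidine-rich element at which transcription begins at a C, in place of the common initiator of other genes. Several have a duplicate whose expression is mainly in the germ line, and the rule on symbols also takes in RpL7-like, RpL24-like and RpLP0-like, whose yeast counterparts are ribosome assembly factors.

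The start sites below are shown because they carry the initiator by which these genes are known, in occupied and unoccupied genes alike. Each line runs 5′ to 3′ on the gene's strand, with 60 bases before the start site and 20 bases from it on, read from the Release 6 (dm6) reference at an Ensembl start site; where a gene has several, the one with the element was taken. Capitals mark the 8-letter TCT initiator (YYCTTTYY, Y being C or T) with its C within 5 bp of the start site or, where that is absent, the 6-letter form YCTTTY within 10 bp; a line without capitals holds neither form there. In the thresholded list the first 5 genes were occupied, and RpL40, which carries the full element, was not.
RpS27: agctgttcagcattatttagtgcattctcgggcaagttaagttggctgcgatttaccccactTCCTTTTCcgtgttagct
RpL7: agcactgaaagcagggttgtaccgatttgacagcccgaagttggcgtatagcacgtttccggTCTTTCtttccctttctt
RpL14: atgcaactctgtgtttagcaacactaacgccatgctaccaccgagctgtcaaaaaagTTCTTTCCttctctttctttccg
RpL30: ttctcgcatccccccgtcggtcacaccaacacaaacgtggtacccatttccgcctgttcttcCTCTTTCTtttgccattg
RpS4: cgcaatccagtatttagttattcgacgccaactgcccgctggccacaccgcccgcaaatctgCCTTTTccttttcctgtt
RpL40: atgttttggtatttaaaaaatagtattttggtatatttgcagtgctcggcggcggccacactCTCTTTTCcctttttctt

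In the paralogue pairs that follow, the first gene of each pair was occupied in the thresholded list and the second was not. RpS5b carries the same 8-letter element as RpS5a, whereas RpL10Aa, RpS28a and RpS19b hold neither form.
RpS5a: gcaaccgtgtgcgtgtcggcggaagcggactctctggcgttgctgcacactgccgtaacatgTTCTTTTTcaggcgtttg
RpS5b: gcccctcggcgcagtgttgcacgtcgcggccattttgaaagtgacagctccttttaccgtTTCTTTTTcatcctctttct
RpL10Ab: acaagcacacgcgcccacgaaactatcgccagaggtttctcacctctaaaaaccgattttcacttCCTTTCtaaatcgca
RpL10Aa: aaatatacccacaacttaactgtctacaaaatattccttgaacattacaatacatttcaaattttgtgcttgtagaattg
RpS28b: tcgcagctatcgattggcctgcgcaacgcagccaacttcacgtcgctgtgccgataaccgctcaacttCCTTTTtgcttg
RpS28a: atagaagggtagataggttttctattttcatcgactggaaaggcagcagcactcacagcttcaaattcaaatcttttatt
RpS19a: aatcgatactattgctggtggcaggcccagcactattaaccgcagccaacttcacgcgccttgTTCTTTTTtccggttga
RpS19b: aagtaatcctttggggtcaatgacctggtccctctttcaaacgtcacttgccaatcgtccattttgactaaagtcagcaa

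On dm6, these windows are chr3R:25247453-25247532 for RpS27, chr2L:10201040-10201119 for RpL7, chr3L:8600946-8601025 for RpL14, chr2L:19009218-19009297 for RpL30, chr3L:13041741-13041820 for RpS4 and chr2L:4227639-4227718 for RpL40. Among the paralogues they are chrX:17148245-17148324 for RpS5a, chr3R:14901544-14901623 for RpS5b, chr3L:11822791-11822870 for RpL10Ab and chr3R:15037306-15037385 for RpL10Aa. The remaining windows are chrX:9554563-9554642 for RpS28b, chr3R:30022629-30022708 for RpS28a, chrX:16637834-16637913 for RpS19a and chr3R:23933511-23933590 for RpS19b. RpL7, RpL14, RpS4, RpL40, RpL10Ab, RpL10Aa, RpS28b and RpS19a are on the plus strand, and the others are on the minus strand. Each window covers the core promoter and the first bases of the first exon.

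CG17359 peaks lay at the start sites of most ribosomal protein genes. In the thresholded list, 74 of the 93 genes (79.6%) had a summit within 500 bp of an annotated start site, against 3252 of 13852 other protein-coding genes (23.5%) and a background of 23.9% over all protein-coding genes. These 74 genes are called occupied below. In the whole pooled list the count was 81 of 93, against a background of 46.8%. Among the 7287 strongest peaks of each replicate, 83.9%, 80.6% and 75.3% of ribosomal protein genes were occupied in replicates 1, 2 and 3, against backgrounds of 24.4%, 24.8% and 23.8%. The mean was 79.9% ± 4.35 for ribosomal protein genes and 24.0% ± 0.493 for other protein-coding genes (SD, n = 3), and the difference of 55.9 percentage points exceeded its SD of 4.02 over the replicates. The exact paired sign-flip permutation test over replicates, two-sided, gave p = 0.25, the smallest that 3 replicates allow, so no comparison tested here can go below it. Such a p measures only the spread between these 3 replicates.

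**Figure D1:**
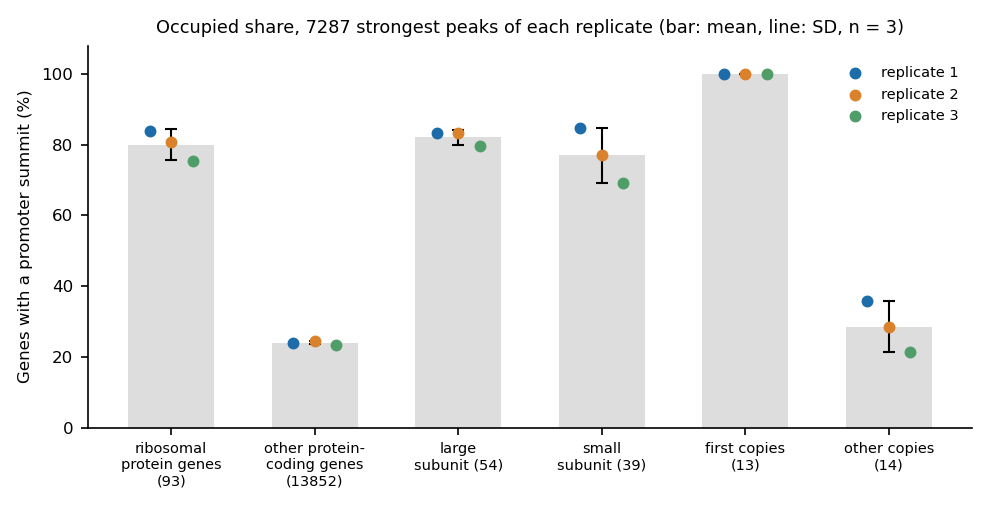
Share of genes (%, axis from 0) with a summit within 500 bp of a start site among the 7287 strongest peaks of each replicate; points are replicates, bars means and lines SDs. Ribosomal protein genes averaged 79.9% and other protein-coding genes 24.0%; first paralogue copies were at 100% and other copies at 28.6%.

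The same genes recurred between replicates. Of the 93 genes, 70 were occupied in all 3 replicates and every one of these was in the thresholded list, 4 were occupied in 2 replicates, 5 in 1 and 14 in none. The thresholded list is made from the same replicates and is not independent of them. In replicates 1, 2 and 3 taken singly, 24.4%, 24.8% and 23.8% of all protein-coding genes were occupied. Their share occupied in all 3 is not given here, so such recurrence cannot be called particular to ribosomal protein genes. The 74 thresholded summits were all distinct, so no 2 ribosomal protein genes shared a summit. Across the 74 genes, the rank order of signal in the whole lists gave Spearman's rho of 0.866 between replicates 1 and 2, 0.925 between replicates 1 and 3 and 0.894 between replicates 2 and 3, as a description across genes that share a library and are not independent.

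By strength, the peaks were in the upper and middle part of the list without reaching its top. The best, at RpL19, a large subunit protein that contacts the small subunit, ranked 141 of 7287. With the thresholded list cut into 10 equal blocks from the strongest peaks to the weakest, the blocks held 9, 16, 10, 13, 6, 7, 5, 4, 4 and 0 of the 74 genes. The median percentile of signal among occupied genes was 68.9, 75.7 and 66.7 for ribosomal protein genes in replicates 1, 2 and 3, against 58.3, 56.0 and 58.5 for other protein-coding genes. The difference of 12.8 points exceeded its SD of 6.04 (exact permutation p = 0.25, n = 3), but among the 3643 strongest peaks it was -0.99 points, with the sign turned.

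**Figure D2:**
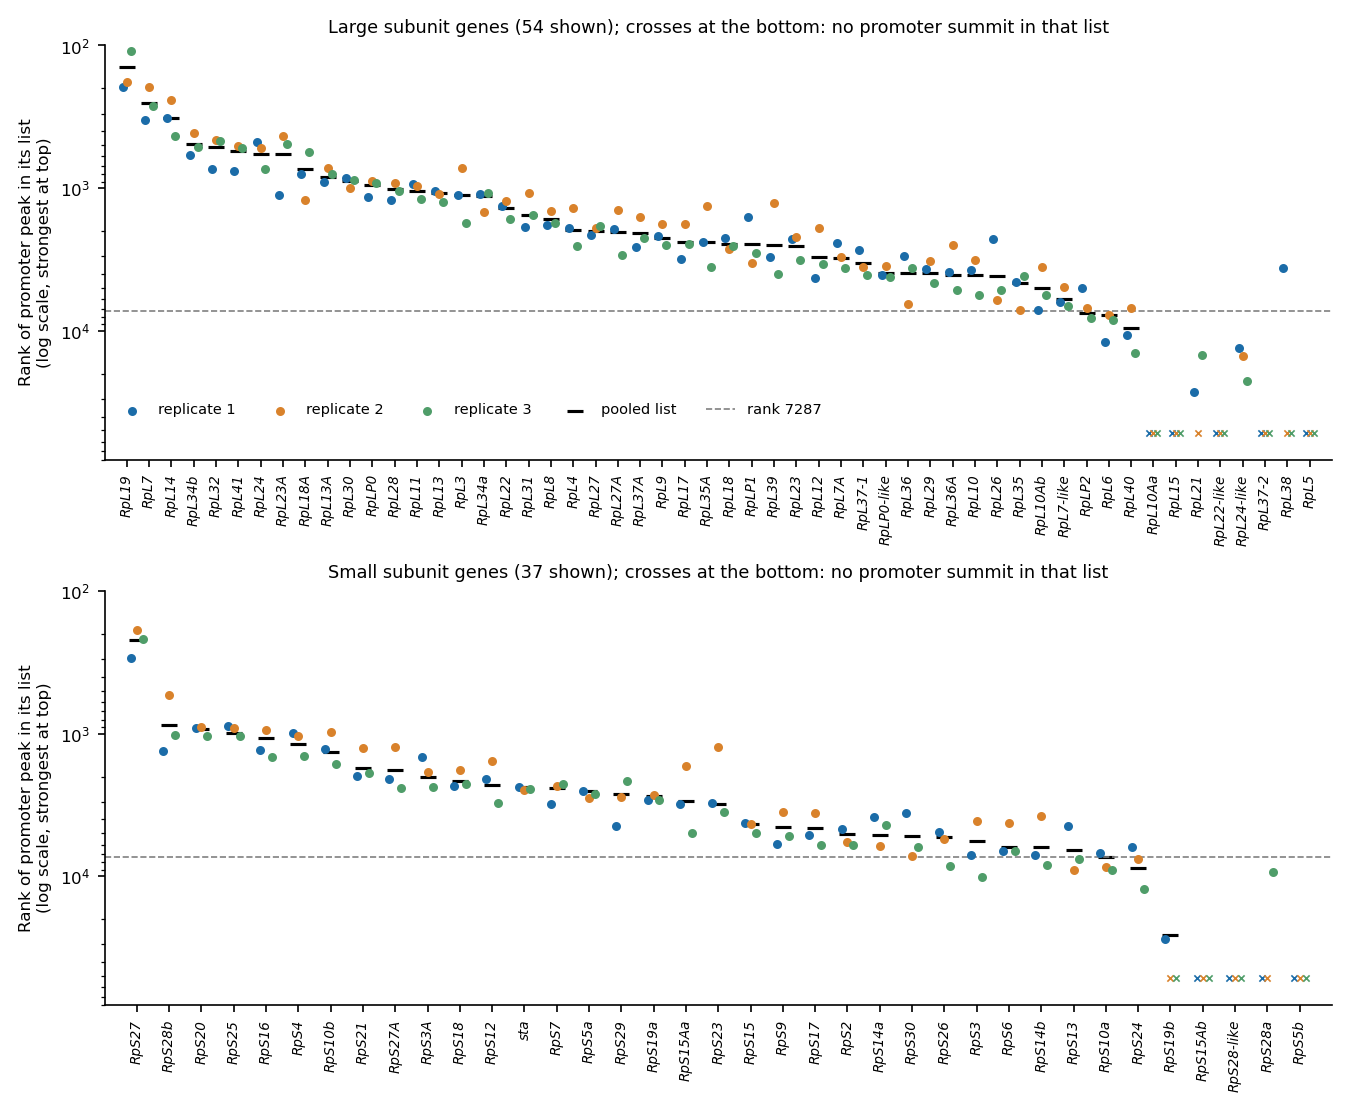
Rank of the promoter peak of 91 of the 93 ribosomal protein genes in the replicate lists (points) and in the pooled list (black dashes), on a log scale with the strongest peak at the top; crosses mark lists with no promoter summit and the broken line is rank 7287. RpL19, RpL7, RpL14 and RpS27 stand at the upper left, and 12 genes at the right have no pooled rank.

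Among large subunit genes, RpL19 had the strongest peak, with a signal of 598, 698 and 1221 in replicates 1, 2 and 3 and of 2513 in the thresholded list, on the authors' scale, which differs from list to list. RpL7, whose product binds near the 5S rRNA, followed with 465, 661 and 820 in the replicates and 1934 in the thresholded list. RpL14 had 474, 593 and 646 in the replicates and 1710 in the thresholded list. In every replicate these 3 genes ranked above all other large subunit genes. RpL34b had 361, 457 and 591 in the replicates and 1399 in the thresholded list, and RpL32, a common reference gene for quantitative PCR, had 316, 430 and 624 in the replicates and 1369 in the thresholded list.

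Among small subunit genes, RpS27 stood apart, with a signal of 497, 679 and 908 in replicates 1, 2 and 3 and of 2094 in the thresholded list. RpS28b came next in the thresholded list at 1038, with 226, 400 and 408 in the replicates. RpS20 had 279, 301 and 404 in the replicates and 984 in the thresholded list. RpS25 and RpS16 followed at 944 and 900 in the thresholded list. RpS27 was thus above the next small subunit gene in each replicate, while RpS28b, RpS20 and RpS25 changed order between replicates.

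Large and small subunit genes were occupied at nearly the same share in the thresholded list. There 43 of 54 large subunit genes (79.6%) and 31 of 39 small subunit genes (79.5%) were occupied. In replicates 1, 2 and 3 the share was 83.3%, 83.3% and 79.6% for large and 84.6%, 76.9% and 69.2% for small subunit genes, a difference of 5.18 percentage points that was within its SD of 5.94 (exact permutation p = 0.5, n = 3). Among the 3643 strongest peaks of each replicate, however, the mean share was 65.4% for large and 51.3% for small subunit genes, a difference of 14.2 percentage points with an SD of 4.96 and 1 sign in all 3 replicates (exact permutation p = 0.25). Median distances of the summit from the start site were 26, 34 and 36 bp for large and 30, 22.5 and 40 bp for small subunit genes, a difference of 1.17 bp with an SD of 8.95 (exact permutation p = 1, n = 3). With a window of 250 bp the difference was 7 bp with an SD of 4.58 (exact permutation p = 0.25, n = 3). The median percentile of signal was 73.4, 80.1 and 69.6 for large and 57.9, 67.1 and 66.7 for small subunit genes. That difference, 10.5 points with an SD of 6.68, had 1 sign in all 3 replicates (exact permutation p = 0.25).

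Summits sat closer to the start site than at other genes. In the thresholded list the median distance was 26 bp at ribosomal protein genes, against 146 bp at other occupied protein-coding genes, and 53 of the 74 genes (71.6%) had the summit no more than 50 bp away, against 13.4% of the others. The median distance was 28, 28 and 36 bp in replicates 1, 2 and 3, against 150, 132 and 151 bp at other genes, and the difference of -113.7 bp exceeded its SD of 9.07 (exact permutation p = 0.25, n = 3). The median position was 11.5 bp upstream of the start site, against 134 bp upstream at other genes. An upstream summit was found at 63.5% of occupied ribosomal protein genes and at 82.8% of the others. The annotated start site itself lay inside the peak in 71 of the 74 genes, a count not given for other protein-coding genes.

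**Figure D3:**
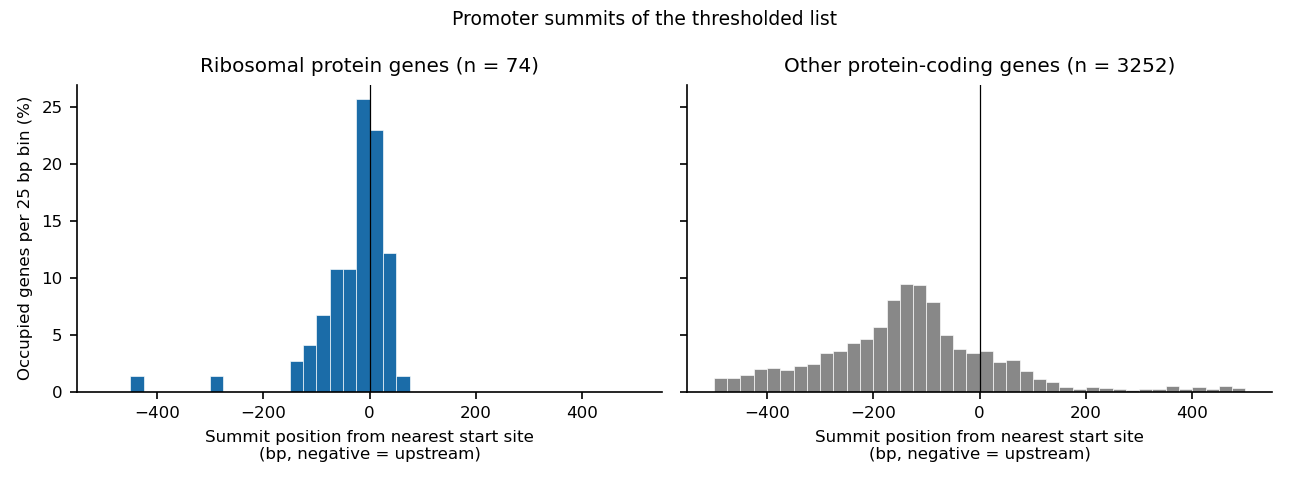
Share of occupied genes (%) by position of the thresholded summit from the nearest start site in 25 bp bins, negative being upstream, for 74 ribosomal protein genes at the left and 3252 other protein-coding genes at the right. The ribosomal protein genes are highest in the 2 bins next to the start site, and the other genes are highest between 150 and 100 bp upstream.

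Within the genes, 47 summits lay upstream of the canonical transcript, 22 in its first exon and 5 past that exon, and 72 of 74 were upstream of the start codon. These counts are not given for other protein-coding genes. The closest summit was at RpS4, 1 bp from its start site in the thresholded list, with positions of 1, -13 and -19 bp in replicates 1, 2 and 3. RpL37A was at 2 bp and RpL31 at 3 bp. The range of positions over the 3 replicates had a median of 33.5 bp over the 74 genes. That was below the most common peak width of 390 or 330 bp but close to the median summit distances of 28, 28 and 36 bp. The side of the start site could therefore change between replicates, as at RpL12 with -23, -26 and 36 bp. The range exceeded 100 bp at 6 genes, and no range is given for other protein-coding genes.

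Among those 6 genes were RpL23, RpS6, RpS13, RpS14a and RpS23. RpS23 had its summit at -404, 10 and -443 bp in replicates 1, 2 and 3, so that the strongest summit in the window alternated between a start-site and a distant position. RpS6, the substrate of S6 kinase, had it at 21, -471 and -407 bp. In the thresholded list the RpS6 summit was 450 bp upstream, with a signal of 245, and lay 99 bp from the start site of bys, an 18S rRNA maturation gene; a weaker summit of the pooled list lay 49 bp from the RpS6 start site with a signal of 183. RpS6 was the only ribosomal protein gene whose nearest thresholded summit was between 400 and 600 bp from a start site, so the window's edge decides on that gene alone.

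Further distant summits were also upstream. RpL7-like had its summit at -286 bp, RpS20 at -131 bp, RpS5a at -111 bp, RpL34b at -106 bp and RpL32 at -105 bp. RpL32 was stable at this distance, with -105, -111 and -108 bp in replicates 1, 2 and 3, and so was RpL34b at -119, -117 and -104 bp. RpL19 was as stable nearer the start site, at -24, -23 and -26 bp.

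Base composition at the summit differed in the same way. In 100 bp centred on the thresholded summit, G+C was 46% in the median at ribosomal protein genes, against 31% at other occupied protein-coding genes, and 46%, 45% and 45% against 31%, 34% and 31% in replicates 1, 2 and 3. Around the start sites themselves, the same genes had medians of 47% and 45%. Split by distance, summits within 50 bp of a start site had 46% at 53 ribosomal protein genes and 44% at 437 other genes, and summits farther away had 42% at 21 ribosomal protein genes and 30% at 2815 other genes. The split does not match distance, since 2 of the ribosomal protein genes and 1104 of the other genes had their summit more than 200 bp away. The G+C values were computed after the summit positions were known and are given as a description.

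**Figure D4:**
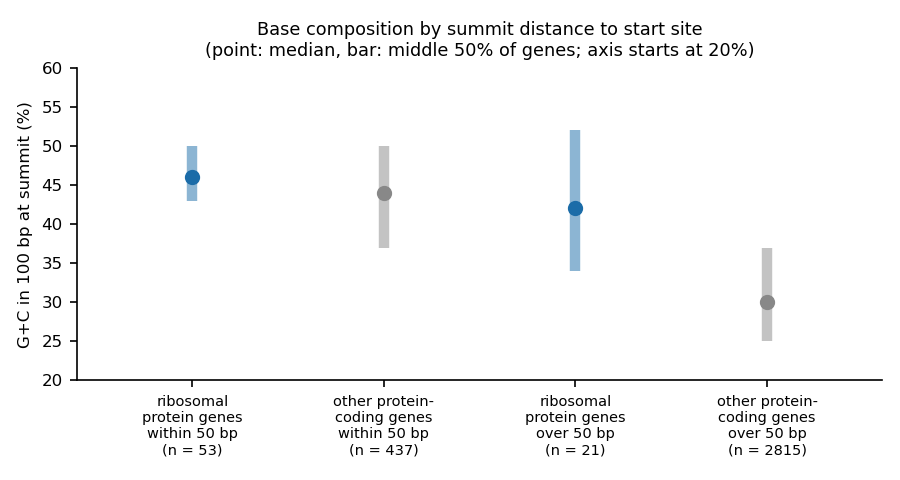
G+C (%) in 100 bp centred on the thresholded summit, by distance of the summit to the nearest start site; points are medians, bars span the middle 50% of genes, and the axis starts at 20%. The other genes drop to 30% when the summit is over 50 bp away, and the 21 ribosomal protein genes there have a median of 42%.

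Initiator elements were found at both occupied and unoccupied genes, at a larger share of the occupied ones. Unoccupied means only that no thresholded summit lay within 500 bp. The 8-letter TCT initiator was present at 46 of the 93 ribosomal protein genes, at 40 of 74 occupied genes (54.1%) and 6 of 19 unoccupied genes (31.6%), and at 0.932% of all protein-coding genes. The 6-letter form was at 65 of 74 occupied and 10 of 19 unoccupied genes, and at 4.09% of all protein-coding genes. Occupied genes with the 8-letter element had a median summit distance of 26.5 bp and those without it 25.5 bp. Among the 84 other protein-coding genes with the 8-letter element, 33 (39.3%) were occupied, with a median distance of 142 bp. Where the 6-letter form was present, the median distance of the summit from its C was 35 bp over 65 genes.

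Other elements were counted from 250 bp before to 50 bp after any start site, on both strands. TATCGATA, known as the DRE and recognised by the factor Dref, was at 24 of 74 occupied genes (32.4%), 4 of 19 unoccupied genes and 10.2% of all protein-coding genes. In the occupied genes that hold it, its centre was a median of 55 bp from the summit over 24 ribosomal protein genes and 103.5 bp over 437 other genes with a copy within 500 bp of the summit. GGTCACAC, the core of Motif 1, was at 14 of 74 occupied and 2 of 19 unoccupied genes and at 8.71% of all protein-coding genes. The TATA box TATAAA was at 37 of 74 occupied and 11 of 19 unoccupied genes and at 51.2% of all protein-coding genes. CAGCTG was at 9 of 74 occupied and 2 of 19 unoccupied genes and at 22.3% of all protein-coding genes. The common initiator TCAGT within 5 bp of the start site was found at 1 of 93 ribosomal protein genes and at 14.0% of all protein-coding genes. Among the 3252 other occupied protein-coding genes the shares were 15.3% for TATCGATA, 13.4% for GGTCACAC and 56.0% for TATAAA. They were 32.2% for CAGCTG and 17.1% for TCAGT.

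Occupied and unoccupied genes also differed in architecture, again as a description. The unoccupied class includes many other copies of paralogue families, so values for single-copy genes are given as well. A start site of another protein-coding gene on the opposite strand within 1 kb upstream was present at 50 of 74 occupied genes (67.6%), 6 of 19 unoccupied genes and 36.2% of all protein-coding genes. At the 3252 other occupied protein-coding genes the share was 58.8%, so most of the excess over all genes is shared with them. Among single-copy ribosomal protein genes such a start site was present at 38 of 57 occupied and 2 of 9 unoccupied genes. Small nucleolar RNAs, which guide the modification of rRNA and are often encoded in introns of ribosomal protein genes, lay within 26 of 74 occupied and 3 of 19 unoccupied genes. They lay within 0.602% of all protein-coding genes and 0.769% of other occupied protein-coding genes. Among single-copy genes the counts were closer, at 23 of 57 occupied and 3 of 9 unoccupied genes. Genes of a single exon numbered 0 of 74 occupied and 6 of 19 unoccupied genes, and 16.1% of all protein-coding genes. Of other occupied protein-coding genes, 7.63% had a single exon. Among single-copy ribosomal protein genes, those of a single exon numbered 0 of 57 occupied and 1 of 9 unoccupied genes. Median G+C at the start site was 47% in occupied genes, 39% in unoccupied genes and 44% in all protein-coding genes. Among single-copy genes it was 47% in occupied and 40% in unoccupied genes.

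Where genes are packed closely, a summit can lie at more than 1 start site. Of the 74 summits, 41 were also within 500 bp of another gene's start site, and for 34 of them that was another protein-coding gene. These counts are not given for other occupied genes, so such sharing cannot be called particular to ribosomal protein genes. At 3 of the 74 summits the other gene was nearer: JhI-21 at 2 bp for RpL7-like, 14-3-3zeta at 13 bp for RpLP0-like, and bys for RpS6. The RpL13 summit was 6 bp from the RpL13 start site and 78 bp from that of Dref, RpL7 was 36 bp away against 66 bp for Ripalpha, and RpL14 was 33 bp away against 94 bp for Nelf-E. RpS27A, which encodes a ubiquitin fusion, and Ip259 were each 61 bp from their shared summit. At genes with no divergent start site within 1 kb, the median distance in the thresholded list was 18 bp for ribosomal protein genes and 160 bp for other genes.

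Paralogue copies differed in occupancy. All 13 first copies were occupied in the thresholded list and in each replicate, against 4 of 14 other copies (28.6%) in the thresholded list and 5, 4 and 3 of 14 in replicates 1, 2 and 3. The share of the other copies was thus near the 23.9% of all protein-coding genes in the thresholded list. In 11 families the first copy was taken as the main one from what is known of the genes, and no expression was measured here. The other copies include RpL7-like, RpL24-like and RpLP0-like, whose yeast counterparts are ribosome assembly factors. The classes are therefore not a contrast of wide with restricted expression. In the RpL34 and RpS14 families, where both copies are widely expressed, the order is arbitrary. Without those families the counts were 11 of 11 first copies and 2 of 12 other copies. In those last 2 genes, RpL7-like and RpLP0-like, the summit was nearer to the neighbouring gene, so none of the 12 had a thresholded summit nearest to its own start site. The 4 occupied other copies had their summit at -286 bp (RpL7-like), -100 bp (RpLP0-like), -96 bp (RpL34a) and -55 bp (RpS14b), whereas 11 of 13 first copies had it within 50 bp.

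**Figure D5:**
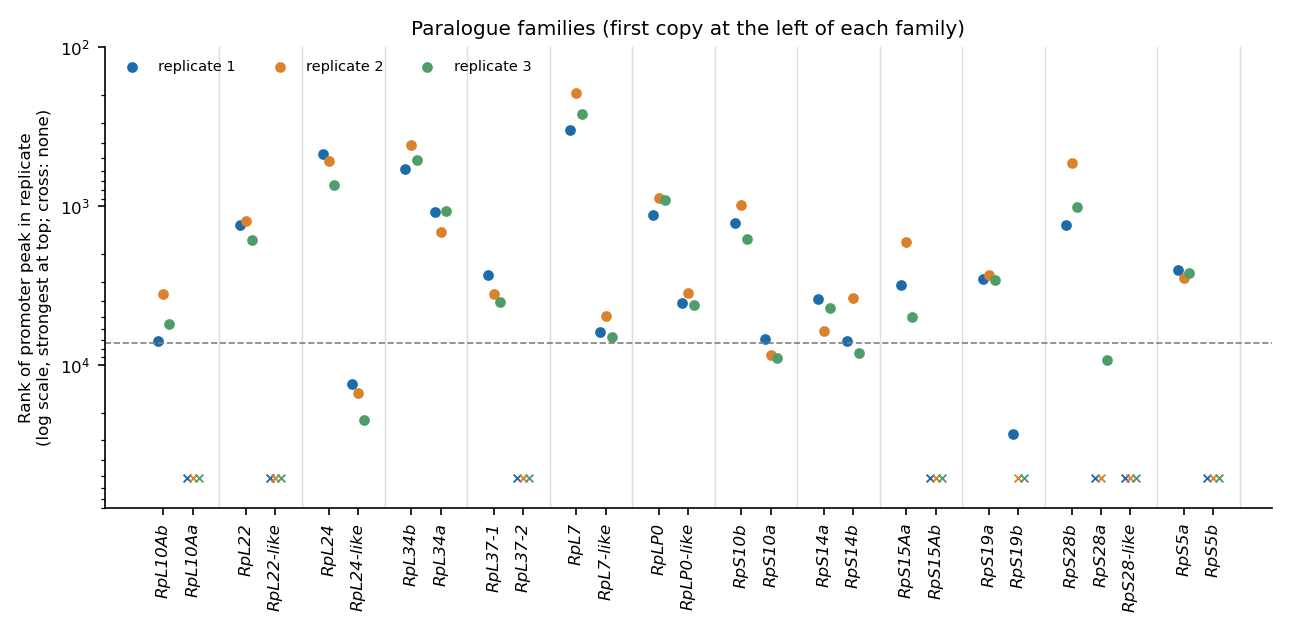
Rank of the promoter peak in each replicate (log scale, strongest at the top) for the 27 genes of 13 paralogue families, first copy at the left of each family; crosses mark no promoter summit and the broken line is rank 7287. The first copies lie above the line in all 3 replicates, and RpL10Aa, RpL22-like, RpL37-2, RpS15Ab, RpS28-like and RpS5b have crosses only.

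Where both copies had a peak in every whole replicate list, the signals were compared within each replicate as a log2 ratio of first over other copy. RpL24 over RpL24-like was 3.32, 3.47 and 3.85 in replicates 1, 2 and 3. The mean was 3.55 ± 0.28 (SD, n = 3, exact permutation p = 0.25). The RpL24-like summit lay at -142, 219 and -76 bp in replicates 1, 2 and 3, at ranks 13150, 15140 and 22386. RpL24-like had no promoter summit in the pooled list. Its ratio therefore compares RpL24 with weak peaks at differing positions, and the SD does not describe 1 recurring summit. RpL7 over RpL7-like was 2.83 ± 0.18 and RpS10b over RpS10a 2.01 ± 0.27. RpLP0 over RpLP0-like was 1.35 ± 0.15 and RpL34b over RpL34a 0.71 ± 0.26. In these 5 pairs all 3 replicates had 1 sign. The thresholded summits of RpL7-like and RpLP0-like were nearer to JhI-21 and 14-3-3zeta. Their ratios may therefore compare a first copy with a neighbouring gene's promoter. RpS14a over RpS14b was 0.71, -0.55 and 0.82, a mean of 0.33 ± 0.76 that was within its spread (exact permutation p = 0.5, n = 3), although the 2 genes are tandem copies.

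The remaining families gave no replicated ratio. RpS19a over RpS19b was 2.70 in replicate 1 alone, and RpS28b over RpS28a was 2.43 in replicate 3 alone. RpL10Aa, RpL22-like, RpL37-2, RpS5b, RpS15Ab and RpS28-like had no promoter summit in any of the 5 lists, whereas RpS5a, for example, had signals of 147, 142 and 218 in replicates 1, 2 and 3. RpS5b and RpS19b are known for expression in the ovary and RpL22-like for expression in the testis. The 6-letter initiator was at 13 of 13 first copies and 4 of 14 other copies, the 8-letter one at 6 of 13 and 3 of 14, and a single exon at 0 of 13 and 5 of 14. At least 92.5% of 50-base words within 250 bp of at least 1 start site were unique in the genome for every one of the 93 genes.

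Of the 19 unoccupied genes, 10 were other copies of a paralogue family and 9 were single-copy genes, among them RpL5, RpL6, RpL15, RpL21, RpL38, RpL40, RpLP2 and RpS24. In 5 of the 9 a weaker promoter summit was in the pooled list. RpLP2, a protein of the acidic stalk, had it at rank 7521 with a signal of 205, just below the weakest thresholded signal of 211, and RpL6 had it at rank 7786 with 198. RpS24 was at rank 8791 and RpL40, which encodes a ubiquitin fusion, at rank 9577. RpS10a, at rank 7356 with a signal of 209, was the closest paralogue below the threshold, and RpS13, at rank 6529 with 235, was the weakest occupied gene.

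RpL5, RpL15, RpL21 and RpL38 had no thresholded peak of any kind within 100 kb. The 19 unoccupied genes had between 0 and 27 there, with a median of 10. The 74 occupied genes had between 1 and 33, with a median of 15. A gene's own promoter peak is counted, so an occupied gene cannot have 0, and RpL10 had only its own. RpL5, which binds the 5S rRNA with RpL11, RpL21 on arm 2L and RpL15 on arm 3L lay beyond the last pooled peak of their arm. RpL21 was only 1240 bp from the nearest pooled summit and had 9 pooled peaks within 100 kb, whereas RpL5 and RpL15 had 0. RpL5 and RpL15 had no summit in any list. RpL21 had one at -2 bp in replicate 1 (rank 26889) and at 5 bp in replicate 3 (rank 14804), and RpL38 had one at 34 bp in replicate 1 alone, at rank 3620 with a signal of 114. Of initiator elements, 8 of the 9 unoccupied single-copy genes held the 6-letter form and 4 of 9 the 8-letter form.

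Proteins that act as partners in the ribosome did not always all have a thresholded summit, and some of these differences depend on the cutoff. Of the stalk proteins, RpLP0 had a thresholded signal of 971 at -16 bp and RpLP1 of 523 at -34 bp, while RpLP2 had no thresholded summit. Of the 5S rRNA binders, RpL11 had a signal of 916 at -84 bp and RpL5 had none. Of the ubiquitin fusions, RpS27A had a thresholded signal of 658, while RpL40 had only the weaker pooled summit given above. The gene sta, which encodes the small subunit protein also called RpSA, was occupied at -17 bp with a signal of 541, and its ranks of 2364, 2478 and 2428 in replicates 1, 2 and 3 were close together.

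By arm, the occupied genes were 15 of 15 on X, 15 of 19 on 2L, 14 of 21 on 2R, 13 of 14 on 3L and 16 of 23 on 3R. Among all protein-coding genes the occupied share was 24.3% on X, 22.7% on 2L, 23.3% on 2R, 24.5% on 3L, 24.5% on 3R and 22.5% on chromosome 4. RpS3A, the sole ribosomal protein gene on chromosome 4, was occupied at -11 bp, with ranks of 1457, 1845 and 2372 in replicates 1, 2 and 3.

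Other genes of protein synthesis were set beside the ribosomal protein genes, again over a background of 23.9% of all protein-coding genes. Of the translation elongation factors, 4 of 8 were occupied in the thresholded list, with a median summit distance of 17.5 bp. They were eEF1gamma at -32 bp with a signal of 1312, eEF1alpha1 at -43 bp with 675, eEF2 at 3 bp with 609 and eEF5 at 2 bp with 419. Of the ribosome-associated proteins, 3 of 4 were occupied with a median of 23 bp, among them Nacalpha, a subunit of the nascent polypeptide-associated complex, at -2 bp with 880 and Rack1, which sits on the small subunit, at -23 bp with 864. Ribosome biogenesis genes were occupied at 16 of 32, with a median of 118 bp. The strongest of these, eIF6, a factor that keeps the subunits apart, had 3310 at -111 bp, above every ribosomal protein gene, and Ns2, a nucleostemin family GTPase, had 2306 at -186 bp, between RpL19 and RpS27. The peak of bys, a ribosome biogenesis gene, with a signal of 245, is also the one counted for RpS6, so these 2 groups share a peak. The lists set beside the ribosomal protein genes are short, and no test was made between them.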

How the data were processed

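The authors deposited 5 peak lists on dm6, 1 per replicate, 1 of the pooled replicates and 1 thresholded across them, per the labels and the text files deposited with the lists. Which caller made the peaks, and at which IDR cutoff, is not given in the sources used here. Each peak's signal value is the authors' own, as deposited, on a scale that differs from list to list, and was used only to rank and describe peaks within a list; the log2 ratio of paralogues was computed from the deposited signal within a list. The authors' deposited −log10 q values (0.311 to 4.12 among pooled peaks) filtered nothing here. The thresholded list holds the 7287 strongest pooled peaks and is not independent of the replicates, so each replicate list of 30000 was reduced to its 7287 strongest peaks for comparisons.

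Genes and start sites came from Ensembl 115 and sequence from the Release 6 reference, which is dm6. A gene counted as occupied if any of its start sites had a summit no farther than 500 bp; the strongest such summit was taken, and its position was read from the nearest start site on the gene's strand. Values were compared between gene groups within each replicate, with an exact two-sided sign-flip permutation test over the 3 replicates (Python 3.11.15, numpy 2.4.6, scipy 1.17.1). Of 36 ribosome biogenesis symbols, 32 matched. Genes, gene lists, elements and tests were chosen with earlier results of these data known. Named genes were the 5 strongest of each subunit, unoccupied genes, all paralogues, the 3 nearest and 3 farthest summits, those near the window's edge and up to 2 of each other list, by signal; further genes were named after their values were seen, and some genes that the rule names are not reported here. Summit assignment and the test were checked on simulated data. Alternatives changed the window, the number of peaks, the start sites and the genes entered.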

Additional observations from a re-analysis of the deposited data

How the results depend on the processing

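Occupied share and summit distance of ribosomal protein genes against other protein-coding genes kept their direction under all 12 alternatives run, between 40.5 and 62.9 percentage points and between -149.5 and -86.5 bp. The difference in signal percentile turned to -0.99 points among the 3643 strongest peaks and otherwise reached at most 16.8 points. The number of occupied genes in the thresholded list was between 54, with the 3643 strongest peaks, and 75, with a window of 1000 bp.

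Between large and small subunit genes, the occupied share differed by 0 percentage points with all deposited peaks, -2.63 without the paralogue families and -3.63 without divergent start sites, but by 14.2 with the 3643 strongest peaks. The distance difference was -2.5 bp with a window of 1000 bp, -2 bp with all deposited peaks, -0.333 bp without the paralogue families, -2 bp with the most upstream start site only, -1.67 bp without divergent start sites and -0.667 bp when a summit counted only for the gene nearest to it, an alternative chosen after seeing the data, and 7 bp with a window of 250 bp; the cause was not tested. The signal percentile difference stayed between 3.08 and 19.0 points. Without the paralogue families it was 8.19 points with an SD of 7.47 (exact permutation p = 0.5, n = 3). There the 3 replicates no longer had 1 sign.

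Leaving out each replicate gave 54.0 to 58.0 percentage points, -118.5 to -109.5 bp and 9.41 to 15.1 points for ribosomal protein against other genes. For large against small subunit genes it gave 2.56 to 8.40 percentage points, -4 to 3.75 bp, with the sign turned without replicate 2, and 7.98 to 14.3 points; with 2 replicates the smallest p is 0.5. The 6 paralogue ratios were unchanged wherever another window or number of peaks gave a value. All pairs but RpS14a over RpS14b had 1 sign in every replicate, so leaving out a replicate could not turn it. Neither result therefore speaks for how firm those ratios are. RpS14a over RpS14b was between 0.083 and 0.765. The 6-letter initiator was also added after seeing the data. No paired analysis was possible because all samples form 1 group and no groups of samples share replicate numbers; the pairing in the tests is of gene groups within a replicate. The lists hold no counts, so what depth limits cannot be told from them.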
